A study of Homo sapiens with 8 samples.

Results

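The genes described here are 49 genes of the cell cycle and of DNA replication, chosen by name as 26 genes of S phase and 23 genes of mitosis, out of 14653 genes whose levels were tested. ATAD2, a chromatin protein with an AAA ATPase domain and a bromodomain, was placed among the S phase genes. It was included because the study uses it as a known target of the ETS transcription factor ETV1. That use was a check of an ETV1 inhibitor by quantitative PCR in LNCaP cells, not in PNT2. No transcript of the UHRF1 gene model was matched, so 48 members were measured, 25 of S phase and 23 of mitosis, and all 48 passed the filter on low counts. The samples were 8 RNA-seq libraries of PNT2, a human prostate epithelial cell line immortalized with SV40, with 2 libraries in each of 4 groups that differ in the repressors CIC and ERF. The groups were WT, ERF KD, CIC KO and CIC-ERF codeletion (the line with both losses, ERF KD + CIC KO in the study's own naming). According to the methods, the knockdown line was made with short hairpin RNAs against ERF under puromycin selection, the knockout line with Cas9 and guide RNAs against CIC under blasticidin selection, and the double line with both. The labels do not say which hairpin or guide a library carries, or that the 2 libraries of a group came from separate cultures, so p-values measure the spread between these libraries, which may be technical.

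Cells copy their genome in S phase and divide it in mitosis, and the genes for each step are transcribed in waves. E2F factors, held back by RB family proteins, drive the genes that license origins, supply nucleotides and copy DNA. Later in the cycle, the B-MYB and FOXM1 factors drive the genes for mitotic cyclins, kinases, kinesins and the spindle checkpoint through promoter elements called CHR. The SV40 large T antigen binds RB family proteins, which is a property of PNT2 that all 4 groups share. In bulk RNA, a change in the share of cells in a phase and a change in RNA per cell cannot be told apart.

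The promoters of the members differed between the subsets, and the windows that carry the CHR and E2F motifs are shown first, with the members whose levels the later comparisons turn on. RefSeq promoters (GRCh38.p14), which run from 250 bases before to 50 bases after a transcription start, were matched by symbol for 39 of the 49 members. No entry was matched for ATAD2, MCM4, MCM5, E2F8, CCNE2, AURKA, TPX2, FOXM1, BIRC5 and UBE2C. Each window has 30 bases, read 5′ to 3′ along the gene's strand, and capitals mark the motif on either strand.
The CHR motif in the promoters of the mitotic kinase CDK1 (chr10:60778475-60778504, plus strand), cyclin CCNB2 (chr15:59105105-59105134, plus strand) and polo-like kinase PLK1 (chr16:23678848-23678877, plus strand), in that order:
CDK1: ctcgcacttggcTTCAAAgctggctcttgg
CCNB2: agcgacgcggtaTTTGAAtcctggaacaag
PLK1: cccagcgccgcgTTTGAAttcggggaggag
The E2F motif in the promoters of the replicative helicase subunit MCM2 (chr3:127598402-127598431, plus strand), the sliding clamp PCNA (chr20:5126663-5126692, minus strand) and the licensing factor CDC6 (chr17:40287875-40287904, plus strand), in that order:
MCM2: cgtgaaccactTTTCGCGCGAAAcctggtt
PCNA: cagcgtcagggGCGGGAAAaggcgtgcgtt
CDC6: ggccattcggaTTTGGCGCgagcgcggctg
The CCAAT motif in the promoters of CDC45 (chr22:19479806-19479835, plus strand), KIF20A (chr5:138179033-138179062, plus strand), CCNA2 (chr4:121823922-121823951, minus strand) and TOP2A (chr17:40417932-40417961, minus strand), chosen after their levels were seen:
CDC45: ctCCAATgtggcCCAATcagaaagaaagga
KIF20A: cttccctatctgATTGGccgaacgaacgca
CCNA2: gcgagcgctttcATTGGtccatttcaatag
TOP2A: agcgagtcagggATTGGctggtctgcttcg

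The CHR letters searched were TTTGAA and TTCGAA, the E2F letters were TTTGGCGC, TTTCGCGC and TTTCCCGC, and all were read on both strands. In MCM2, 2 matches overlap because TTTCGCGC reads into its own reverse complement. CHR was held by 12 of 18 mitosis members with a promoter (66.7%), by 2 of 21 S phase members (9.52%, MCM6 and RRM1) and by 19.5% of 27305 genes with a promoter entry. E2F was held by 14 of 21 S phase members (66.7%), by 2 of 18 mitosis members (11.1%, CDK1 and NUSAP1) and by 3.30% of all genes. The 21 S phase promoters include that of UHRF1, whose level was not measured. Both subsets often held CCAAT, the letters bound by NF-Y, in 15 of 21 S phase members and 16 of 18 mitosis members against 39.7% of all genes. The octamers searched for CIC (TGAATGAA, TGAATGGA, TCAATGAA and TCAATGGA) were in the promoters of 0 of 39 members and of 4.62% of all genes. The motif that the study gives for CIC also allows A in place of the last G of TGAATGAA and of TCAATGAA. The octamers with this change were not searched. Only the searched octamers are therefore known to be absent from the 300 bases read here. CHR in CCNB2 and PLK1 began 29 bases before the start, at position -29, and no CHR letters were in the window of CCNB1. The CDK1 match shown is on the opposite strand and begins past the start, at position 10. It is 1 of 3 in that promoter, and the others, on the gene's strand, begin at -69 and -13. A match is a description of letters, and binding was not measured. For CHR and E2F too, a promoter without a match is known to lack only the letters searched.

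**Figure D1:**
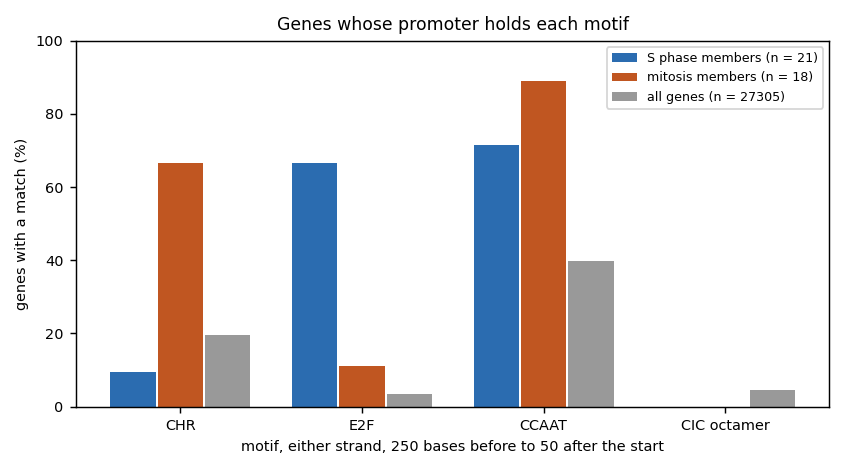
Share of genes (%, vertical axis) whose promoter holds each of 4 motifs (horizontal axis), for S phase members, mitosis members and all genes with an entry. CHR bars are high for mitosis members (66.7%) and E2F bars for S phase members (66.7%), and the searched CIC octamers have no bar for either subset.

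Before the comparisons, the labels were set against the targeted genes. ERF was at 55.9 and 55.9 CPM (counts scaled to library size by TMM) in the WT libraries, 81.2 and 77.8 in the libraries labelled ERF KD, 18.8 and 11.7 in those labelled CIC KO, and 11.6 and 10.4 in CIC-ERF codeletion. CIC was at 128 and 129 CPM in WT, 109 and 109 in libraries labelled ERF KD, 132 and 131 in those labelled CIC KO, and 90.9 and 66.4 in codeletion. ERF was thus low under the CIC KO label and not under the ERF KD label, and the deposited tables of these 2 groups are also named with the opposite letters. Single-loss libraries are called by their label throughout, and a direction given for one of them holds for the label only. ETV1 was at 11.4 and 11.7 CPM in WT, 70.7 and 49.4 in libraries labelled ERF KD, 11.8 and 11.4 in those labelled CIC KO and 19.5 and 22.4 in codeletion. Total estimated counts ran from 19477473 to 25813157 per library, and the lowest estimated count of any member in any library was 192 (CCNE1), so no member was near the floor of 3 counts.

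The epithelial label of the line was checked with 10 epithelial and 10 mesenchymal markers, and the libraries labelled ERF KD stood apart. Summed TPM (a level per transcript length) of the epithelial markers was 4069 and 4653 in WT, 1775 and 2212 in libraries labelled ERF KD, 4362 and 5196 in those labelled CIC KO and 4276 and 4927 in codeletion. Summed TPM of the mesenchymal markers was 818 and 1003 in WT, 1782 and 2139 in libraries labelled ERF KD, 860 and 972 in those labelled CIC KO and 529 and 753 in codeletion. In the libraries labelled ERF KD against WT, 8 of 10 epithelial markers fell and 6 of 10 mesenchymal markers rose, with 1 lower (edgeR, adjusted p under 0.05, where 10.1% of all genes were called). E-cadherin (CDH1) fell by 4.41 and vimentin (VIM) rose by 3.45 on the log2 scale. No marker was at 0 in any library, but the basal keratin KRT14 was at 0.046 and 0.045 TPM in the libraries labelled ERF KD. The part of this shift in the changes of cell cycle genes in the same libraries was not tested.

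Levels per length in WT spanned a wide range. The helicase subunit MCM4 had the highest mean level (548 TPM), followed by the clamp PCNA (476 TPM), the mitotic cyclin CCNB1 (391 TPM) and UBE2C, the ubiquitin carrier of the anaphase promoting complex (365 TPM). The lowest were the activator E2F2 (9.0 TPM), the kinetochore motor CENPE (17.9 TPM) and the replication factor GINS2 (18.1 TPM). Spans across the 8 libraries were taken on CPM, not TPM. The highest CPM of a member was under 1.5 times its lowest for 31 of 48 members. The widest CPM spans were 2.75-fold for cyclin E1 (CCNE1), 2.18-fold for topoisomerase TOP2A, 1.87-fold for the helicase subunit CDC45 and 1.86-fold for the kinesin KIF20A. The plot of members in each library shows most of the mitosis subset above WT in the libraries labelled ERF KD and in codeletion.

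**Figure D2:**
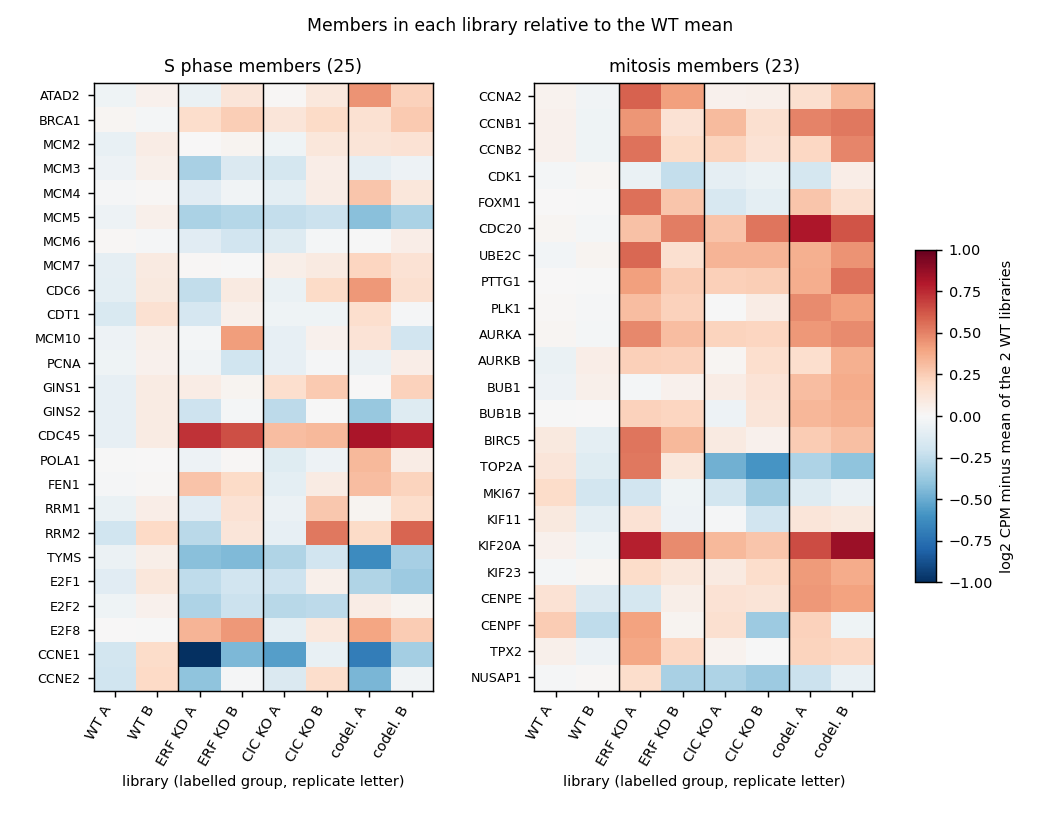
Colour gives log2 CPM minus the mean of the 2 WT libraries for 25 S phase members (left) and 23 mitosis members (right), with libraries on the horizontal axis and genes grouped by role on the vertical axis. CDC45, KIF20A and CDC20 are red in all 6 libraries outside WT, TYMS and MCM5 are blue in all 6, and TOP2A is red only in the libraries labelled ERF KD and WT A.

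The summed level of each subset was then compared by library. The 23 mitosis members summed to 3782 and 3377 TPM in WT, 4680 and 3863 in libraries labelled ERF KD, 3910 and 3517 in those labelled CIC KO and 4399 and 4153 in codeletion. Both ERF KD and both codeletion libraries lay above both WT libraries, while those labelled CIC KO overlapped WT. The 25 S phase members summed to 3207 and 3243 TPM in WT, 2998 and 2976 in libraries labelled ERF KD, 3097 and 3005 in those labelled CIC KO and 3329 and 3120 in codeletion. On this scale both single-loss lines lay below WT and codeletion lay on both sides of it. Summed as CPM, which is scaled by TMM, the order was another. The sums were 0.458% and 0.498% of the scaled library size in WT and 0.445% and 0.476% in libraries labelled ERF KD. They were 0.451% and 0.511% in those labelled CIC KO and 0.515% and 0.516% in codeletion. On this CPM scale both single-loss lines overlapped WT and both codeletion libraries lay above it. Shares of unscaled counts were not computed. The ratio of the mitosis sum to the S phase sum was 1.18 and 1.04 in WT, 1.56 and 1.3 in libraries labelled ERF KD, 1.26 and 1.17 in those labelled CIC KO and 1.32 and 1.33 in codeletion. With 2 libraries a group, an exact permutation test of 1 group against another cannot go below p = 0.333, and the sums were not tested in another way.

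The libraries labelled ERF KD were first compared with WT. In this comparison 3 of 48 members rose and 0 fell at an adjusted p under 0.05, or 6.25% of members, where 10.1% of all genes tested were called. The 3 were CDC45, which joins MCM2-7 in the active replicative helicase, KIF20A, a kinesin of cytokinesis, and CCNA2, the cyclin of S phase and early mitosis. At an unadjusted p under 0.05, 14 members passed (11 higher, 3 lower), or 29.2%, against 24.8% of all genes. With the letter A or B added as a block, 6 members rose (the same 3 with AURKA, BIRC5 and FOXM1) and 2 fell (TYMS and CCNE1), where 18.2% of all genes were called. By limma on log2(TPM + 1), 2 members rose (CDC45 and KIF20A) and 2 fell (MCM5 and TYMS), where 7.04% of all genes were called. Both libraries lay above both WT libraries for 19 members, 15 of them mitotic, against 28.3% of all genes.

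CDC45 (ENSG00000093009, chr22:19479459-19520612, GRCh38) was at 78.3 and 88.2 CPM in WT, 137 and 130 in libraries labelled ERF KD, 103 and 104 in those labelled CIC KO and 146 and 142 in codeletion. The groups did not overlap for any pairing with WT, and codeletion was the highest. The change in the libraries labelled ERF KD was 0.68 ± 0.12 on the log2 scale (SE, n = 2 per group, adjusted p = 0.00951, edgeR). It was no longer called without WT replicate A (adjusted p = 0.118) or without ERF KD replicate A (0.0508).
KIF20A (ENSG00000112984, chr5:138178719-138187715) was at 157 and 149 CPM in WT, 262 and 213 in libraries labelled ERF KD, 192 and 185 in those labelled CIC KO and 240 and 278 in codeletion. Every library outside WT lay above both WT libraries. Its change in the libraries labelled ERF KD was 0.63 ± 0.15 (SE, adjusted p = 0.0312, edgeR), which was not called without either WT library or without ERF KD replicate A (adjusted p from 0.155 to 0.185).
CCNA2 (ENSG00000145386, chr4:121816444-121823933) was at 141 and 135 CPM in WT, 208 and 183 in libraries labelled ERF KD, 142 and 143 in those labelled CIC KO and 154 and 173 in codeletion. The libraries labelled ERF KD were above all others. Its change was 0.50 ± 0.13 (SE, adjusted p = 0.0423, edgeR), and it was not called when any 1 of the 8 libraries was left out (adjusted p from 0.0514 to 0.237).

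**Figure D3:**
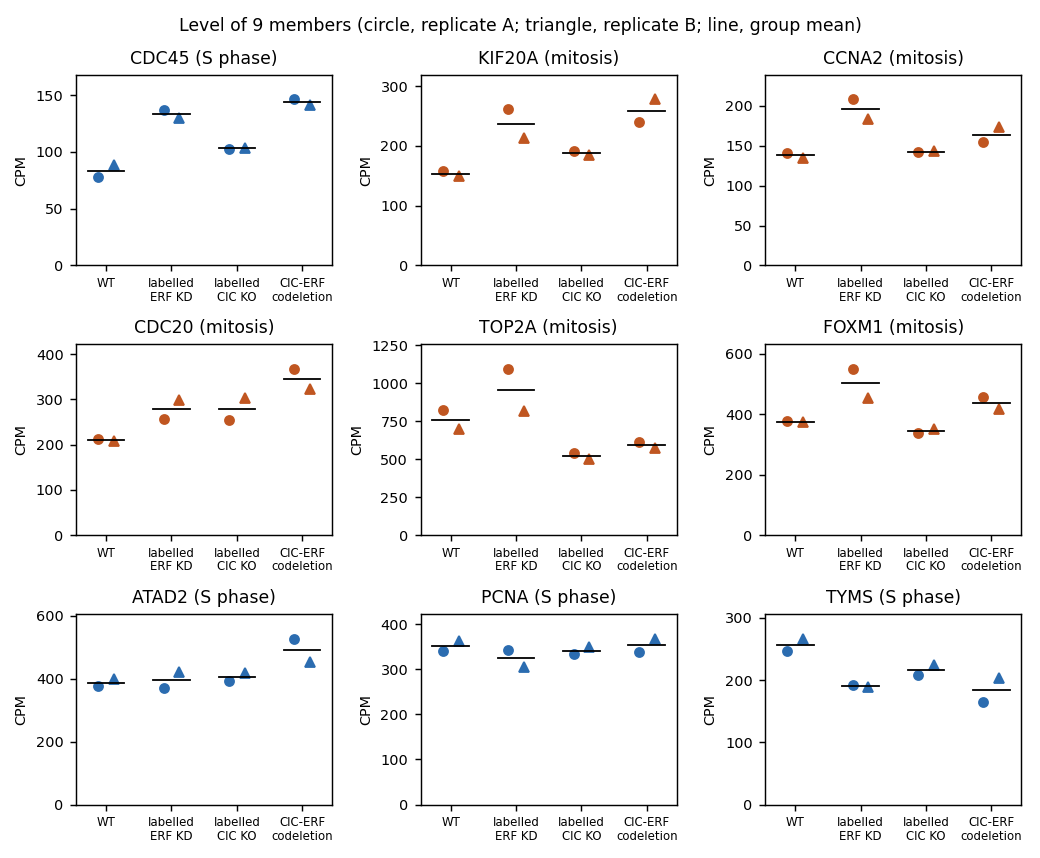
CPM (vertical axis, from 0) of 9 members in the 4 groups (horizontal axis), with a circle for replicate A, a triangle for replicate B and a line at the group mean. CDC45 and KIF20A lie above WT in every other group, TOP2A is highest in the libraries labelled ERF KD and lowest in those labelled CIC KO, and PCNA stays between 306 and 368 CPM.

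By role, the mitotic groups of genes had mostly higher fold changes in the libraries labelled ERF KD, although few passed the test. The median log2 fold change of the 23 mitosis members was 0.30, with 19 above 0, against a median of 0.01 and 50.6% above 0 over all genes. Of the 6 kinases and checkpoint genes, the survivin gene BIRC5 had the largest change at 0.43 ± 0.13 (SE, adjusted p = 0.0796, and 0.0281 with the block), and the Aurora kinase AURKA had 0.40 (adjusted p = 0.0788, and 0.0334 with the block). The 3 genes of the anaphase promoting complex and securin had values from 0.34 (PTTG1, securin) to 0.41 (CDC20, its activator), and 0 of 3 passed. FOXM1, the transcription factor of mitotic genes, was at 376 and 374 CPM in WT against 549 and 454 in libraries labelled ERF KD, a difference of 0.42 ± 0.14 (SE, adjusted p = 0.103, and 0.0389 with the block). Some mitosis members had values below 0, such as CDK1 with -0.15 ± 0.13 and the proliferation marker MKI67 with -0.13 ± 0.16 (SE), with adjusted p of 0.543 and 0.679. CCNB1 had 0.30 ± 0.15 (adjusted p = 0.253) and TOP2A 0.33 ± 0.17 (adjusted p = 0.284). Without ERF KD replicate A the values of FOXM1, CCNB1 and TOP2A dropped to 0.26, 0.13 and 0.092.

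The S phase subset had no common direction in the libraries labelled ERF KD. Its median log2 fold change was -0.07, with 10 of 25 members above 0, and it became 0.03 when WT replicate B was left out. At an unadjusted p under 0.05, 2 S phase members were higher and 3 lower (20%, against 24.8% of all genes). The 2 higher were CDC45 and E2F8. E2F8 was at 59.7 and 63.6 CPM against 47.3 and 47.1 in WT, a change of 0.39 that was not called. Of the 8 licensing genes, 0 passed the test, and values ran from -0.30 (MCM5) to 0.01 (MCM2). PCNA had -0.12 ± 0.13 (SE, adjusted p = 0.628) and MCM2 had 0.01 ± 0.13 (adjusted p = 0.967). TYMS, the thymidylate synthase, was at 246 and 267 CPM in WT, 192 and 189 in libraries labelled ERF KD, 208 and 224 in those labelled CIC KO and 165 and 204 in codeletion. All 6 libraries outside WT were below both WT libraries, and the change in the libraries labelled ERF KD was -0.43 ± 0.14 (SE, adjusted p = 0.0968). With the block TYMS was called (adjusted p = 0.0322), and 39.2% of its exonic bases overlap ENOSF1 on the other strand, while whether the libraries are stranded was not given in the sources used here. CCNE1, which starts S phase with CDK2, was at 19.8 and 25.4 CPM in WT against 9.22 and 16.4 in libraries labelled ERF KD, a difference of -0.81 ± 0.31 (SE, adjusted p = 0.141, and 0.0109 with the block). Without the block it ran from -0.47 when ERF KD replicate A was left out to -1.29 when ERF KD replicate B was left out. The share of CCNE1 counts on its leading transcript ran from 42.7% to 89.5% across libraries.

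The libraries labelled CIC KO were then compared with WT. None of the 48 members passed the test by edgeR, where 0% of all genes were called, and DESeq2 called 0 members and 0.177% of all genes. At an unadjusted p under 0.05, 3 members passed (6.25%, against 4.01% of all genes). These were TOP2A, the topoisomerase that untangles sister chromosomes, at -0.54 ± 0.17 on the log2 scale, CDC20 at 0.41 ± 0.15 and CDC45 at 0.31 ± 0.12 (SE). The subset medians were -0.01 for S phase and 0.06 for mitosis, against 0.01 for all genes. TOP2A was at 823 and 696 CPM in WT and 543 and 502 in the libraries labelled CIC KO, so both were below both WT libraries. The spindle protein NUSAP1 had -0.34, but 62.2% of its exonic bases lie in the overlapping AC087721.2 gene model on the same strand, and its counts are uncertain. Values near 0 were found for ATAD2 (0.06 ± 0.14), MCM2 (0.04 ± 0.13), PCNA (-0.05 ± 0.13) and CDK1 (-0.08 ± 0.13, all SE). MKI67 had -0.27 ± 0.16, which became -0.083 without WT replicate A, and CCNB1 had 0.24 ± 0.15, which became 0.15 without CIC KO replicate A.

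The double line was compared with WT next. By edgeR 0 of 48 members passed, where 0.0682% of all genes were called. DESeq2 called 6 members higher (AURKA, CCNB1, CDC20, CDC45, KIF20A and PLK1) against 3.03% of all genes, and edgeR with the replicate block called 3 (CDC20, CDC45 and KIF20A) against 2.49%. At an unadjusted p under 0.05, 17 members passed (14 higher, 3 lower), or 35.4%, against 13.3% of all genes. Both codeletion libraries lay above both WT libraries for 28 of 48 members, 18 of them mitotic, against 24.4% of all genes.

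CDC45 had a change of 0.79 ± 0.12 (SE, adjusted p = 0.0613 by edgeR and 0.0171 with the block) in the double line. KIF20A had 0.76 ± 0.15 (adjusted p = 0.0962, and 0.0302 with the block). CDC20 (ENSG00000117399, chr1:43358955-43363203) was at 212 and 207 CPM in WT, 257 and 299 in libraries labelled ERF KD, 255 and 303 in those labelled CIC KO and 367 and 324 in codeletion. Every library outside WT lay above WT and codeletion was the highest group, with a change of 0.72 ± 0.15 (SE, adjusted p = 0.106, and 0.0336 with the block). CCNB1, the cyclin partner of CDK1 at mitotic entry, was at 340 and 320 CPM in WT and 465 and 475 in codeletion, a difference of 0.51 ± 0.15 (adjusted p = 0.209). All 6 kinases and checkpoint genes had both codeletion libraries above WT, with differences from 0.26 (AURKB) to 0.45 (AURKA).

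ATAD2 (ENSG00000156802) was at 376 and 399 CPM in WT, 369 and 421 in libraries labelled ERF KD, 391 and 417 in those labelled CIC KO and 528 and 454 in codeletion. The single-loss groups overlapped WT, and both codeletion libraries lay above all 6 others. The difference of codeletion from WT was 0.34 ± 0.14 (SE, adjusted p = 0.354, not called, and 0.22 without codeletion replicate A), and in the libraries labelled ERF KD, which had the highest ETV1 level, it was 0.03 ± 0.14 (adjusted p = 0.931). Whether ATAD2 follows ETV1 in PNT2 was not tested. BRCA1, the repair gene set beside ATAD2, had 0.21 ± 0.11 in both comparisons.

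The median log2 fold change in codeletion was 0.34 for the mitosis members, with 19 of 23 above 0, and 0.10 for the S phase members, with 17 of 25 above 0, against 0.002 and 50.2% over all genes. On log2(TPM + 1) the S phase median was -0.02 and the mitosis median 0.22, against -0.06 over all genes. The exceptions within mitosis were TOP2A (612 and 574 CPM in codeletion, -0.36 ± 0.17, and -0.23 without WT replicate A), NUSAP1, MKI67 (-0.10 ± 0.16) and CDK1 (-0.05 ± 0.13). In S phase, 3 members had an unadjusted p under 0.05 below WT and 3 above it. Those below were TYMS (-0.47 ± 0.14), MCM5 (-0.37 ± 0.12) and the transcription factor E2F1 (119 and 114 CPM against 135 and 159). All 3 had both libraries below WT. Those above included E2F8 (0.33, with 62.1 and 56.2 CPM against 47.3 and 47.1). MCM2 had 0.13 ± 0.13 and PCNA 0.01 ± 0.13 (SE), neither called. Mitosis members whose promoter holds the CHR letters searched had a median of 0.22 (n = 12). Those with a promoter entry but without these letters had 0.43 (n = 6). Other forms of CHR were not searched, so this is a description of letters only.

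**Figure D4:**
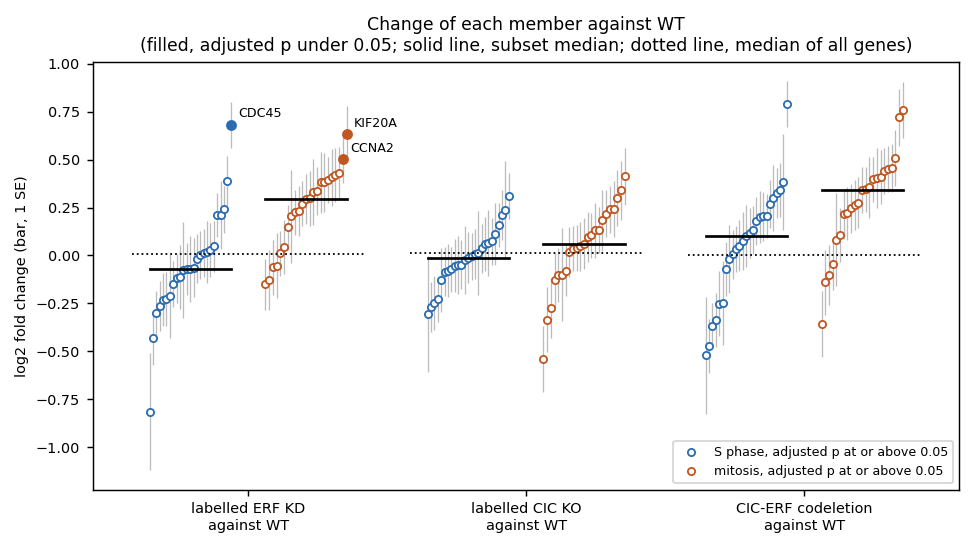
Log2 fold change of each member against WT (vertical axis, bars of 1 SE) for the 3 lines (horizontal axis), S phase in blue and mitosis in orange. Filled points passed an adjusted p of 0.05 and are named, the solid line is the subset median and the dotted line the median of all genes. The mitosis medians (0.30, 0.06 and 0.34) lie above the S phase medians (-0.07, -0.01 and 0.10).

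The lines were also compared with each other, to ask how the double line differs from each single loss. Against the libraries labelled ERF KD, 1 of 48 members was called in codeletion, where 11.7% of all genes were called. This was TOP2A (ENSG00000131747, chr17:40388516-40417950), at 1094 and 819 CPM in the libraries labelled ERF KD and 612 and 574 in codeletion, lower by -0.69 ± 0.17 (SE, adjusted p = 0.0384, edgeR). Replicate B of ERF KD lay nearer to WT replicate A (823) than to its own partner. The call was lost in 6 of 8 fits that left out 1 library and kept without ERF KD replicate B or CIC KO replicate B. Without ERF KD replicate A the difference was -0.45 (adjusted p = 0.189). With the block, 4 members were called, against 20.6% of all genes, the other 3 being higher in codeletion: CENPE (0.47, adjusted p = 0.0389), the checkpoint kinase BUB1 (0.33, adjusted p = 0.0460) and RRM2, the small subunit of ribonucleotide reductase (0.46, adjusted p = 0.0191). Without the block the value of RRM2 ran from 0.25, when codeletion replicate B was left out, to 0.67, when ERF KD replicate B was left out. RRM2 was at 257 and 336 CPM in the libraries labelled ERF KD and 353 and 463 in codeletion. Of its exonic bases, 20.2% lie in the overlapping AC007240.1 gene model on the same strand.

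Against the libraries labelled CIC KO, codeletion had 0 of 48 members called by edgeR and 0 by DESeq2, where 0% and 0.996% of all genes were called. At an unadjusted p under 0.05, 7 members passed, all higher (14.6%, against 8.30% of all genes). The fold change was above 0 for 23 of 23 mitosis members, with a median of 0.21, and for 16 of 25 S phase members, with a median of 0.10, against 49.1% above 0 over all genes. The largest were CDC45 at 0.48 ± 0.12 and KIF20A at 0.46 ± 0.15 (SE).

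Between the 2 single-loss lines, TOP2A and FOXM1 had higher levels under the ERF KD label than under the CIC KO label, the only 2 of 48 members called (4.17%), where 9.4% of all genes were called. TOP2A differed by 0.87 ± 0.17 (SE, adjusted p = 0.0172, edgeR), with 543 and 502 CPM in the libraries labelled CIC KO. FOXM1 (chr12:2857681-2877155), at 549 and 454 CPM against 336 and 350, differed by 0.55 ± 0.14 (adjusted p = 0.0459). With the block, CCNA2 (adjusted p = 0.0287) and CDC45 were called as well, both higher under the ERF KD label, where 16.5% of all genes were called. Of the exonic bases of FOXM1, 15.9% overlap ITFG2 on the other strand. FOXM1 was not called when any 1 library was left out, apart from ERF KD replicate B, and TOP2A was lost without ERF KD replicate A or either library labelled CIC KO.

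Whether the double line departs from the sum of the single changes was tested with an interaction term. Of 48 members 0 were called by edgeR and 0 by DESeq2, where 4.15% and 7.59% of all genes were called, and 1 member (E2F2, 0.58 ± 0.19 SE, adjusted p = 0.149) had an unadjusted p under 0.05, against 17.5% of all genes. CCNE1 had a term of 0.60 (adjusted p = 0.556), which became 0.26 without ERF KD replicate A and 1.07 without ERF KD replicate B. The member medians were 0.16 for S phase and -0.06 for mitosis.

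Genes of the same processes that are not members gave the wider pathway. In the libraries labelled ERF KD against WT, 5 of 52 other mitotic genes rose and 0 fell (9.62%, near the 10.1% called over all genes), while 0 of 43 other S phase genes were called. The 4 largest of the called changes were PIMREG (0.83 ± 0.15), CKS2, a subunit of cyclin-dependent kinases (0.82 ± 0.13), KIF18A, a kinesin that limits chromosome movement (0.64 ± 0.12), and CEP55 (0.48 ± 0.12, all SE). The median was 0.17 for the other mitotic genes and 0.01 for the other S phase genes. Codeletion against WT called 0 genes of either list, where 0.0682% of all genes were called. The medians were 0.19 and 0.07. Above 0 were 49 of 52 other mitotic genes and 32 of 43 other S phase genes, against 50.2% of all genes. Against the libraries labelled ERF KD, codeletion had 2 other mitotic genes higher, CDC25C (the phosphatase that activates CDK1, 0.93 ± 0.17) and KIF2C (0.73 ± 0.13), and 2 lower, PIMREG (-0.79 ± 0.15) and CEP55 (-0.46 ± 0.12), or 7.69% of the list against 11.7% of all genes. Of the 16 genes of the E2F, RB-like and DREAM complexes, 0 were called against WT in any line. The shares of all genes called were 10.1% (labelled ERF KD), 0% (labelled CIC KO) and 0.0682% (codeletion). Of the 16, 1 was called between codeletion and the libraries labelled ERF KD (6.25%, against 11.7% of all genes). This was MYBL1, lower in codeletion (-0.66 ± 0.17).

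Some members differed between the replicate letters in the same direction in all 4 groups. Replicate B was above replicate A for 8 of 25 S phase members (32%: MCM2, MCM3, MCM5, RRM1, RRM2, GINS2, CCNE1 and CCNE2). The same held for 1 of 23 mitosis members (4.35%, BUB1) and 15.3% of all genes. Replicate A was above replicate B for 4 of 23 mitosis members (17.4%: TOP2A, KIF11, CENPF and TPX2) and 0 of 25 S phase members. The mitosis share is near the 15.2% of all genes. RRM2 was at 270 and 355 CPM in WT A and B, 257 and 336 in ERF KD, 292 and 446 in CIC KO and 353 and 463 in codeletion. CENPF, a kinetochore protein of late cycle, was at 472 and 332, 523 and 403, 442 and 308, and 465 and 385 CPM in the same order. For both genes the 2 libraries of each group differed in the same direction. What the letters share was not given in the sources used here.

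**Figure D5:**
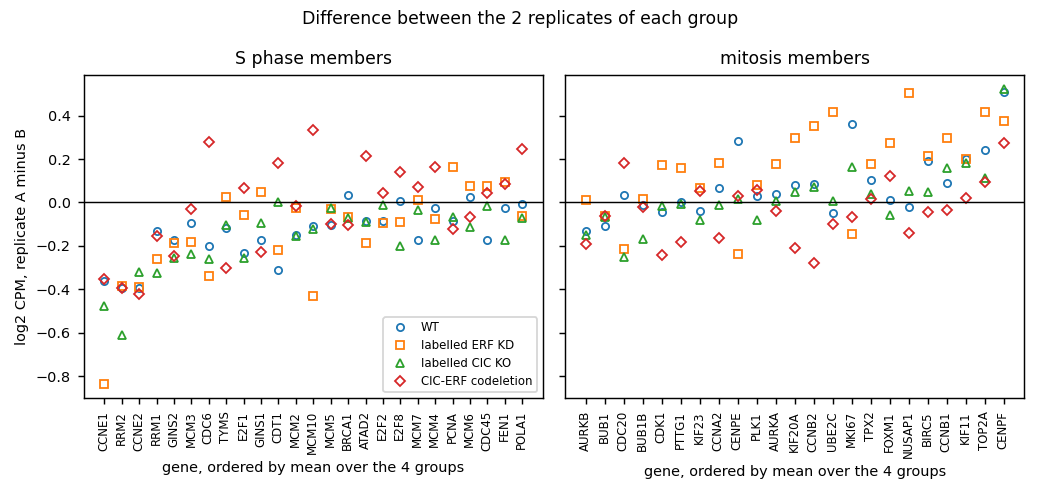
Difference in log2 CPM between replicate A and replicate B of each group (vertical axis, 1 symbol per group) for S phase members (left) and mitosis members (right), ordered by their mean over the 4 groups. All 4 symbols lie below 0 for 8 S phase members, with RRM2, CCNE1 and CCNE2 lowest, and above 0 for TOP2A, KIF11, CENPF and TPX2.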

How the data were processed

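PNT2 RNA from 8 libraries was sequenced, and the authors deposited a table per library with estimated counts and TPM per transcript in kallisto format. The methods name another counting tool, and the submitters' processing notes name build hg19, but the tables hold no coordinates. Transcript IDs were matched to GENCODE 29 (GRCh38), which held 85.0% of 180253 transcripts and 93.2% to 93.3% of counts, and were summed per gene. Depth ran from 19477473 to 25813157 estimated counts. Rounded counts were filtered with filterByExpr (14653 genes kept), scaled by TMM and fitted with edgeR 4.0.16 quasi-likelihood tests on 4 group means, with Benjamini-Hochberg adjustment over all genes. Every fold change is on the log2 scale. CPM is the count scaled to the TMM library size, and TPM, as the authors deposited it, was summed per gene. The method was tested on simulated data.

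The members and the other gene lists were chosen with earlier results of these data known. All 49 members are accounted for. ATAD2, PCNA, MCM2, CDK1, CCNB1, TOP2A and MKI67 are given against WT in each line, with called members and the member of each role with the largest change in the libraries labelled ERF KD. Alternatives were DESeq2 1.42.0, library size alone, no filter, a replicate block, length-scaled counts, limma 3.58.1 on log2(TPM + 1) and log2(TPM + 0.1), only the groups compared, and each library left out. The letters A and B were taken as pairs because the differences between them correlated in all 6 pairs of groups (0.136 to 0.335). Counts between replicates differed beyond sampling noise in all groups (chi-square per degree of freedom of 21.5 to 43.1). Whether counts were assigned by strand where genes overlap was not given in the sources used here. No interval for counting error is given because spread between libraries is larger.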

Additional observations from a re-analysis of the deposited data

Results flagged for a closer look

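In 3 results the change against WT differed between lines by a test of the difference itself. TOP2A differed by -0.69 between codeletion and the libraries labelled ERF KD (adjusted p = 0.0384, edgeR), and by 0.87 between the libraries labelled ERF KD and those labelled CIC KO (adjusted p = 0.0172). FOXM1 differed by 0.55 between the libraries labelled ERF KD and those labelled CIC KO (adjusted p = 0.0459). The 2 TOP2A differences share the libraries labelled ERF KD, of which replicate A (1094 CPM) was well above replicate B (819 CPM). Without ERF KD replicate A the 3 differences were -0.45, 0.64 and 0.40, and none was called. Groups of 2 libraries were too small to look for a library far from the others of its group.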

How the results depend on the processing

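Of 303 alternative values of the member counts and subset medians, 247 stayed within the limits set for them (1.5 times for a count, 1 SD between libraries for a median), and 56 moved. The cause was not tested. The members called in the libraries labelled ERF KD against WT (3) became 7 with DESeq2, 1 with library size alone and 1 with only the groups compared, and ranged from 0 to 2 when 1 library was left out. DESeq2, library size alone and only the groups compared called 14.0%, 9.64% and 8.86% of all genes there. With 0 called by edgeR, codeletion against WT gave 6 with DESeq2 and 3 with no filter on low counts. These settings called 3.03% and 3.46% of all genes. For codeletion against the libraries labelled ERF KD (1) the count was 2 with DESeq2, 0 with length-scaled counts, with limma on both TPM scales and with only the groups compared, and from 0 to 1 when 1 library was left out. Between the single-loss lines (2) it was 1 with library size alone, length-scaled counts and limma on both TPM scales, 0 with only the groups compared, and from 0 to 2 when 1 library was left out.

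The replicate block, paired by letter, gave 8, 3, 4 and 4 called members in these comparisons. In the same order, it called 18.2%, 2.49%, 20.6% and 16.5% of all genes. It changed no other count (0 in the libraries labelled CIC KO against WT, in codeletion against them and in the interaction). In codeletion against the libraries labelled ERF KD, DESeq2 called 15.8% of all genes. Length-scaled counts, limma on both TPM scales and only the groups compared called 7.60% to 8.65%. Between the single-loss lines, library size alone, length-scaled counts and limma on both TPM scales called 6.82% to 9.02% of all genes. The fit of only the groups compared called 5.68%.

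With 1 library left out, the S phase median ran from -0.14 to 0.033 (labelled ERF KD against WT), 0.036 to 0.19 (codeletion against WT), 0.020 to 0.13 (codeletion against labelled CIC KO) and -0.11 to 0.012 (between single losses). The mitosis median ran from 0.18 to 0.38, 0.023 to 0.11 (labelled CIC KO against WT), 0.28 to 0.36 (codeletion against WT), -0.02 to 0.18 (codeletion against labelled ERF KD) and 0.090 to 0.24 (between single losses). On log2(TPM + 1) and log2(TPM + 0.1), the mitosis median was 0.0013 and 0.0013 in the libraries labelled CIC KO and 0.22 and 0.22 in codeletion against WT, where the S phase median was -0.016 and -0.016. The medians of all genes on these 2 scales were -0.031 and -0.038 in the libraries labelled CIC KO and -0.058 and -0.069 in codeletion. In codeletion against WT the mitosis median was 0.28 with library size alone and 0.28 with length-scaled counts. The medians of all genes were -0.061 and -0.0063 in these settings.

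Of 974 alternative values for 61 pairs of gene and comparison, 869 kept direction and side of the threshold, 46 lost the call, 32 gained it and 27 changed sign, all of them for values that were not called. PCNA in codeletion was -0.056 with library size alone, -0.040 and -0.040 on the TPM scales, and -0.00017 with only the groups compared, with -0.057 to 0.058 over single libraries left out. MCM2 in the libraries labelled ERF KD was -0.031 with library size alone, -0.0028 with length-scaled counts and -0.025 and -0.025 on the TPM scales, with -0.068 to 0.089 over libraries left out, and in those labelled CIC KO -0.031 and -0.031 on the TPM scales, with -0.043 to 0.11. ATAD2 in the libraries labelled ERF KD was -0.018 with library size alone and -0.020 and -0.020 on the TPM scales, with -0.070 to 0.10 over libraries left out, and in those labelled CIC KO -0.017 and -0.017 on the TPM scales. With 1 library left out, MKI67 ran from -0.30 to 0.059 in the libraries labelled ERF KD and -0.27 to 0.089 in codeletion, and CDK1 from -0.17 to 0.063 in codeletion. Leaving out 1 library of a group assumes that its remaining library varies like the others.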
